A study of Mus musculus with 8 samples.

Results

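The genes that modify, fold and trim procollagen were followed in mouse ovarian surface epithelial cells with and without an activated Notch3. The 10 genes were taken by name from the 23284 gene symbols of the count files. They are the prolyl 4-hydroxylase subunits P4ha1, P4ha2, P4ha3 and P4hb, the lysyl hydroxylases Plod1, Plod2 and Plod3, the chaperone Serpinh1, and the propeptide-processing genes Pcolce and Bmp1. All 10 were found in the files, and all 10 passed the filter on low counts, as did 12430 symbols in all.

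The cells were ID8 IP2, a subline of the ID8 mouse ovarian surface epithelial line that had been passed through C57BL/6 mice. Control lines carried the empty lentiviral vector pCCL. Notch3IC lines carried pCCL with the HA-tagged intracellular domain of Notch3 (codons 1664 to 2318) followed by an IRES and GFP. All lines of both groups also carried a lentivirus for luciferase and mCherry, were grown in medium with serum, and, going by tests made afterwards, were probably positive for mycoplasma. The 8 libraries came from 4 matched pairs, Sets 1 to 4, each pair being a separate infection, so that a set is 1 infected Control line and 1 infected Notch3IC line. The reads counted on genes were 24910528, 19013578, 23601232 and 28208072 in Control (Sets 1 to 4) against 22980440, 15524262, 25344051 and 27107061 in the Notch3IC libraries.

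Procollagen chains are modified in the endoplasmic reticulum before they fold. Prolyl 4-hydroxylase, a catalytic alpha subunit (P4HA) paired with protein disulfide isomerase (P4HB), makes the hydroxyprolines that hold the triple helix together, and lysyl hydroxylases (PLOD) make the hydroxylysines from which cross-links are built. HSP47, the product of Serpinh1, binds the folded helix on its way to the Golgi, and outside the cell BMP1 cuts off the carboxyl propeptide of fibrillar procollagen with the help of the enhancer PCOLCE. The comparison below asks whether these genes rose with the collagens they serve.

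The library labels were first checked against Notch3 itself. Library values are given here as normalized counts, which are reads scaled to the mean depth after TMM correction, always in the order of Sets 1 to 4. For Notch3 they were 38.6, 40.6, 70.8 and 42.0 in Control against 4319, 467, 9215 and 5839 in Notch3IC. Reads of the vector and of the cell's own gene are counted together in these values. Every Notch3IC library lay above every Control library, and the library of Set 2 was the lowest of the 4. The log2 fold change was 6.69 with a standard error (SE) of 0.88 and an adjusted p of 0.0169. The Notch target genes Hey1 and Nrarp rose as well, with log2 fold changes of 7.35 and 7.34 and an adjusted p of 0.0169 each. Heyl, another target, had 2, 0, 2 and 0 raw counts in Control against 1927, 147, 7460 and 4628 in Notch3IC, so it passed the filter on low counts through the Notch3IC libraries and no fold is given. Within Set 2 the log2 ratio of Notch3 was 3.51, against 6.79 to 7.10 in the other 3 sets, so Bmp1, P4ha3, Plod1 and the called partner genes are also given without Set 2.

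Among the 10 genes, Bmp1 was called higher in Notch3IC and no gene was called lower. To be called, a gene had to reach an adjusted p below 0.1 in edgeR's quasi-likelihood test and a log2 fold change of 1 or more in either direction. By this rule 3.40% of all genes tested were called higher and 0.740% lower. P4ha3 and Plod1 passed the adjusted p but stayed under the fold limit, which makes 3 of 10 genes higher by the p alone, against 5.00% of all genes tested. The fold changes of 9 of the 10 genes were above 0 and their median log2 fold change was 0.31, while the median over all genes tested was -0.01. For the genes called lower the count was 0, and 0 genes fell at an unadjusted p under 0.05. DESeq2 also called 0 lower, against 1.44% of the 12416 genes that edgeR tested and DESeq2 gave an adjusted p.

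**Figure D1:**
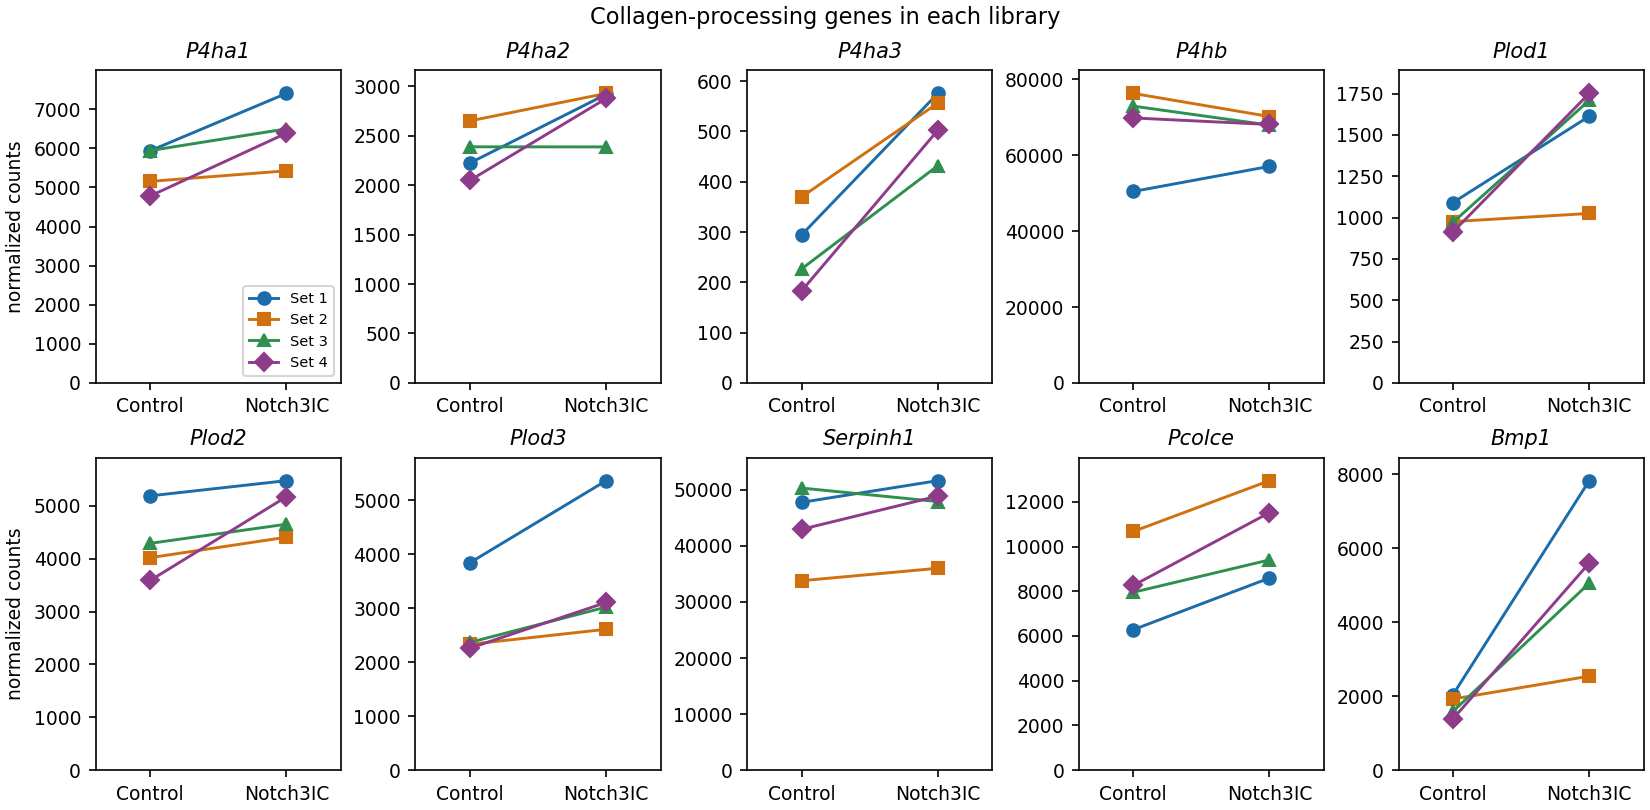
Normalized counts of the 10 collagen-processing genes in each library, with 1 panel per gene and the vertical axis of each panel starting at 0. Lines join the paired libraries of each set. The 4 Notch3IC libraries lie above all 4 Control libraries for Bmp1 and P4ha3, and the lines of P4hb and Serpinh1 are nearly flat.

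Bmp1 encodes the procollagen C-proteinase, and it lies on chr14:70474558-70520234 on the minus strand (GRCm38). Its normalized counts were 2042, 1923, 1590 and 1387 in Control against 7826, 2541, 5055 and 5600 in Notch3IC. The groups did not overlap, and the Notch3IC library of Set 2 lay nearest to the Control range. Across all genes tested, 7.08% had all Notch3IC libraries above all Control libraries. The mean rose from 1736 ± 301 to 5255 ± 2170 normalized counts (SD, n = 4 each), a 3.03-fold rise with a 95% confidence interval of 1.86 to 4.92. This is a log2 fold change of 1.60 (SE 0.31, adjusted p = 0.0359).

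Set by set, the log2 ratio of Bmp1 was 1.94, 0.40, 1.67 and 2.01 in Sets 1 to 4. Set 2, with the smallest rise of Notch3, also had the smallest rise of Bmp1. Without Set 2 the log2 fold change of Bmp1 was 1.88 and the adjusted p 0.0078, in a fit that called 5.36% of its genes higher. Without Set 3 or without Set 4 its log2 fold change was 1.58 or 1.48 (adjusted p = 0.274 or 0.351). Those fits made almost no calls among all genes tested, 1 higher without Set 3 and 0 without Set 4, and Notch3 itself had an adjusted p of 0.215 and 0.221 there, so a lost call in them says nothing of a single gene. The call of Bmp1 was also lost when the Control library of Set 3, the Control library of Set 4 or the Notch3IC library of Set 4 alone was left out (log2 fold change 1.56, 1.50 and 1.57, adjusted p = 0.118, 0.13 and 0.112). In these 3 fits 75, 99 and 155 of all genes tested were still called higher, against 423 with all libraries, and Notch3 was among them.

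Pcolce, on chr5:137605103-137613784, encodes the enhancer that binds the carboxyl propeptide and speeds up its removal. Its normalized counts were 6281, 10673, 7953 and 8260 in Control against 8591, 12946, 9403 and 11517 in Notch3IC. The groups overlapped, yet the Notch3IC library was the higher of the pair in every set, with log2 ratios of 0.45, 0.28, 0.24 and 0.48. Its log2 fold change was 0.36 (SE 0.19, adjusted p = 0.363). With the set as a block, so that each Notch3IC library is compared with its own Control, the log2 fold change was again 0.36 and the adjusted p 0.0311. Exons of Fbxo24 and of an antisense gene cover 2.93% of the exon bases of Pcolce, and whether the reads were counted by strand is not given in the sources used here.

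Of the 3 alpha subunits of prolyl 4-hydroxylase, the least abundant had the largest fold change. P4ha3, on chr7:100285520-100319699, had 294, 370, 227 and 183 normalized counts in Control against 576, 556, 432 and 502 in Notch3IC. The groups did not overlap, and P4ha3 was higher in Notch3IC in 4 of 4 sets, Set 2 included. The mean rose from 268 ± 81.6 to 517 ± 64.4 normalized counts (SD, n = 4 each), which is 1.93-fold with a 95% confidence interval of 1.36 to 2.72. On the log2 scale the change was 0.95 (SE 0.22, adjusted p = 0.0556), and without Set 2 it was 1.10 (adjusted p = 0.029), past the fold limit. The adjusted p of P4ha3 depended on the libraries used. Without Set 1, where Notch3 was still called (adjusted p = 0.0663), P4ha3 had a log2 fold change of 0.94 and an adjusted p of 0.108. It lost the adjusted p in 5 of the 8 fits that left out a single library, those without Control 3 or 4 or Notch3IC 1, 3 or 4 (highest adjusted p = 0.167), all of which called Notch3. Without Set 3 or Set 4, in the fits that did not call Notch3, the log2 fold change of P4ha3 was 0.95 or 0.82 (adjusted p = 0.306 or 0.375).

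P4ha1 and P4ha2, which supply most of the catalytic subunit transcripts, differed less. P4ha1 had 5937, 5154, 5942 and 4781 normalized counts in Control against 7404, 5424, 6497 and 6387 in Notch3IC. It was the higher of the pair in every set but the groups overlapped, with a log2 fold change of 0.24 (SE 0.12, adjusted p = 0.349) and an adjusted p of 0.0858 with the set as a block. P4ha2 had 2225, 2651, 2389 and 2049 normalized counts in Control against 2920, 2929, 2388 and 2877 in Notch3IC. Its Notch3IC library of Set 3 lay below the other 3 and at the level of its own Control. The log2 fold change of P4ha2 was 0.26 (SE 0.11, adjusted p = 0.26), and with the block the adjusted p was 0.112. Per kilobase of exon, P4ha3 made up 4.78 ± 1.32% of the transcripts of the 3 alpha subunits in Control and 7.61 ± 1.03% in Notch3IC (SD, n = 4 each), while P4ha1 made up 74.3 ± 3.04% and 71.8 ± 3.50%. These shares depend on exon lengths that joined all annotated transcripts of each gene.

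P4hb, the disulfide isomerase that serves as the beta subunit and that also folds many other secreted proteins, had the most transcripts of the 10 per kilobase. Its normalized counts were 50449, 76284, 72934 and 69823 in Control against 57058, 70194, 67932 and 68097 in Notch3IC. The pair of Set 1 was the lowest in both groups, and Notch3IC was the higher library in Set 1 and the lower in the other 3 sets. On the log2 scale the difference was -0.03 (SE 0.16, adjusted p = 0.944), and the 95% confidence interval of the fold was 0.761 to 1.25, which does not reach a 2-fold change in either direction.

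Serpinh1, next to P4hb in level, also differed little between the group means. Its normalized counts were 47760, 33784, 50307 and 42953 in Control against 51628, 36005, 47896 and 48877 in Notch3IC. Set 2 was lowest in both groups, and the groups overlapped. Its log2 fold change was 0.08 (SE 0.17, adjusted p = 0.864), with a 95% confidence interval of the fold of 0.807 to 1.38. With the block its adjusted p was 0.44.

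The 3 lysyl hydroxylases act at different places on the collagen chain, PLOD1 mainly in the helix and PLOD2 in the telopeptides, while PLOD3 also adds sugars to hydroxylysine. Plod1, on chr4:147909753-147936767, had 1091, 976, 972 and 914 normalized counts in Control against 1613, 1025, 1709 and 1751 in Notch3IC. The Notch3IC library of Set 2 was within the Control range and the other 3 were above it. The mean rose from 988 ± 74.3 to 1525 ± 338 normalized counts (SD, n = 4 each), with a log2 fold change of 0.63 (SE 0.17, adjusted p = 0.0846). Without Set 2 the log2 fold change was 0.77 and the adjusted p 0.0102. Without Set 1 it was 0.65 and the adjusted p 0.141. Plod1 lost the adjusted p in 6 of the 8 fits that left out a single library, all but those without Control 1 or Notch3IC 2 (highest adjusted p = 0.244). Without Set 3 or Set 4 its log2 fold change was 0.56 or 0.52 (adjusted p = 0.497 or 0.592, in the fits that did not call Notch3).

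Plod3 had 3845, 2332, 2369 and 2261 normalized counts in Control against 5365, 2611, 3023 and 3108 in Notch3IC. Set 1 stood above the rest in both groups, so the groups overlapped although Notch3IC was the higher library of all 4 pairs. For Plod3 the log2 fold change was 0.38 (SE 0.26, adjusted p = 0.495) with condition alone and 0.36 (SE 0.07, adjusted p = 0.0345) with the set as a block. Exons of Znhit1 on the opposite strand and of Mir702 cover 11.9% of the exon bases of Plod3. Plod2 had 5188, 4018, 4289 and 3588 normalized counts in Control against 5475, 4405, 4651 and 5170 in Notch3IC. Its groups overlapped, and its log2 fold change was 0.21 (SE 0.13, adjusted p = 0.456 with condition alone and 0.148 with the block). Exons of Gm38391 on the opposite strand cover 6.42% of its exon bases. The largest difference of Plod2 within a set was that of Set 4, a log2 ratio of 0.53 against 0.08 to 0.13 in the other 3.

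With the set as a block, 6 of the 10 genes passed an adjusted p under 0.1, all of them higher in Notch3IC: P4ha1, P4ha3, Plod1, Plod3, Pcolce and Bmp1. In that fit 14.9% of all genes tested were higher at this p. With the fold limit added, the block called Bmp1 alone of the 10, against 5.19% of all genes tested. The numbers of processing genes that were higher in Notch3IC were 10, 9, 7 and 9 of 10 in Sets 1 to 4. Of all 12430 genes tested, 6021, 6487, 6110 and 6240 were higher.

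**Figure D2:**
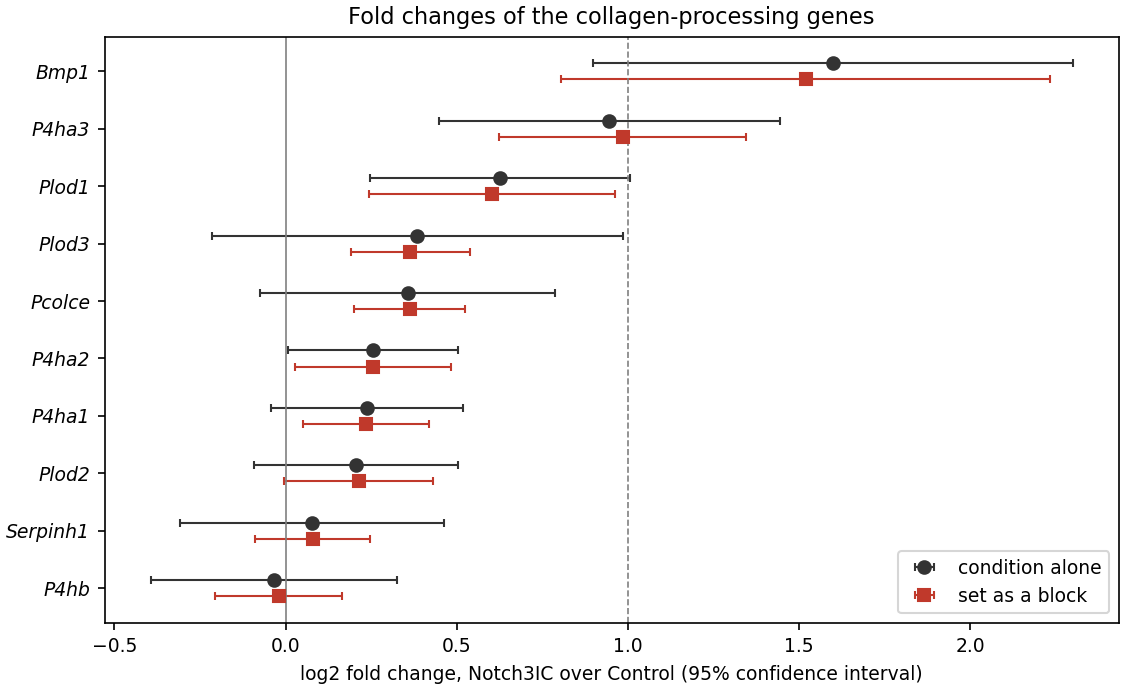
Log2 fold changes of the 10 genes, Notch3IC over Control, with 95% confidence intervals, from the fit with condition alone (circles) and with the set as a block (squares). The solid line marks no change and the dashed line the fold limit of 1. Only Bmp1 lies past the dashed line, and the block gives the narrower intervals for Plod3 and Pcolce.

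The collagens, the substrates of these enzymes, had a larger median fold change. Of 43 collagen symbols in the files, 25 were tested and 7 were called higher, against 3.40% of all genes tested. The 7 were Col3a1 and Col5a3 among the fibrillar chains, and Col15a1, Col18a1, Col14a1, Col8a1 and Col6a3 among the rest. Called lower were 0, against 0.740% of all genes tested, and the median log2 fold change was 1.15. Col14a1 and Col15a1 had fewer than 10 counts in every Control library and passed the filter through the Notch3IC libraries. With at least 10 counts asked of every library, 4 collagens were called higher, and the 22 collagens that met this had a median of 1.03. The block called 15 of the 25 higher, where it called 5.19% of all genes tested. DESeq2 also called 15 of the 43 symbols higher, among them Col28a1, which edgeR did not test. Of the 12416 genes that edgeR tested and DESeq2 gave an adjusted p, DESeq2 called 4.62% higher. Col1a1 and Col1a2, the chains of type I collagen, had log2 fold changes of 1.01 (SE 0.35, adjusted p = 0.166) and 1.15 (SE 0.38, adjusted p = 0.154), and both were called with the block (adjusted p = 0.0386 and 0.0708). Col5a1 had a log2 fold change of 1.05 (adjusted p = 0.181) and Col5a2 one of 0.09 (adjusted p = 0.916). With the block Col5a1 was called higher (adjusted p = 0.0286) and Col5a2 was not called (adjusted p = 0.744). The basement membrane chains Col4a1 and Col4a2 had log2 fold changes of 1.84 (adjusted p = 0.109) and 1.41 (adjusted p = 0.141). With the block both were called higher (adjusted p = 0.0543 and 0.0684). Their relatives Col4a5 and Col4a6, named here after their values were seen, were at -0.44 and -0.67 (adjusted p = 0.288 and 0.343). These 2 were lower in Notch3IC in 4 of 4 sets and passed the adjusted p with the block (0.0275 and 0.0263).

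Within each set, the median log2 ratio of the 9 fibrillar collagens tested was above that of the 10 processing genes. The medians of the processing genes were 0.42, 0.14, 0.19 and 0.48 in Sets 1 to 4, and those of the fibrillar collagens 0.93, 0.38, 0.95 and 1.73. Both were lowest in Set 2 and highest in Set 4. The difference between the 2 lists was not tested, since genes are not replicates.

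**Figure D3:**
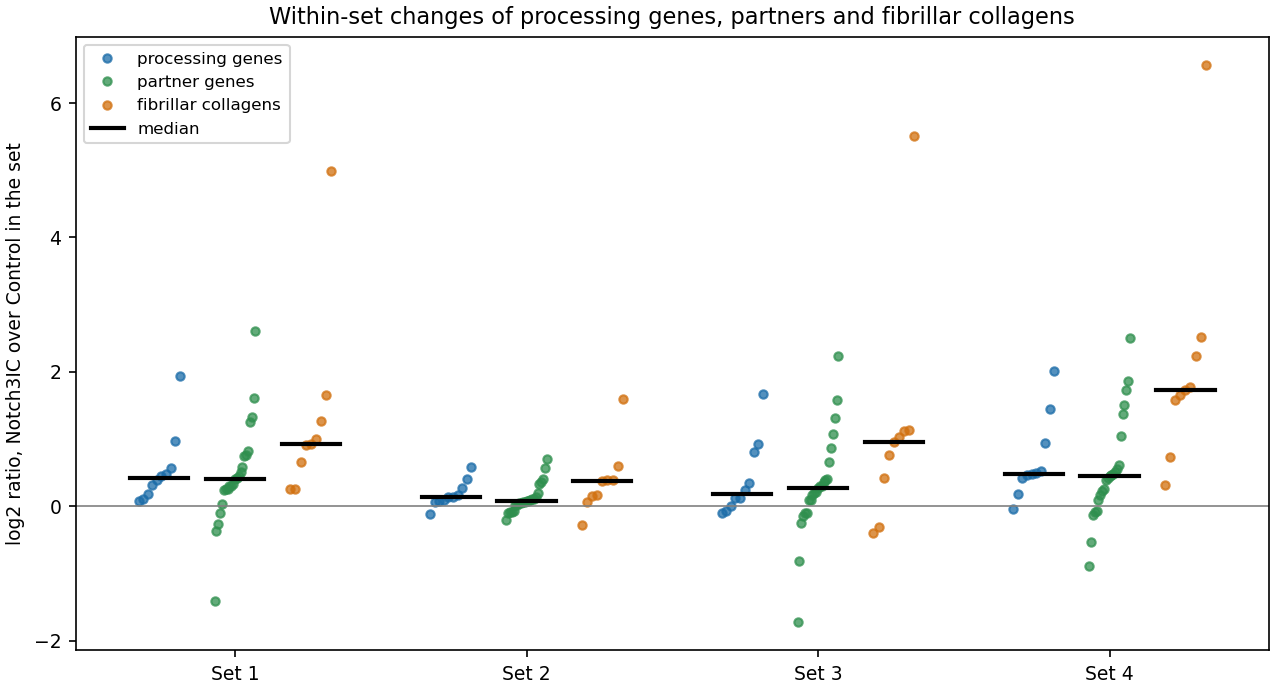
Log2 ratios of Notch3IC over Control within Sets 1 to 4 for the 10 processing genes, the 23 partner genes tested and the 9 fibrillar collagens tested. Each point is a gene and black bars are medians. The fibrillar collagens have the highest median in every set, and all 3 lists have their smallest median in Set 2.

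Levels were then compared as reads per kilobase of exon, scaled for depth, so that different genes could be set side by side. Exon lengths joined all annotated transcripts of a gene, and the annotation behind the counts is not known. Col1a2 had 12426 exon bases against 6563 for Col1a1. Levels of different genes, their sums and their order are therefore approximate, while folds of a single gene do not depend on its length. Summed over the fibrillar collagens, the level was 1224, 802, 629 and 477 in Control against 2389, 1044, 1288 and 1621 in Notch3IC, a fold of 1.95, 1.30, 2.05 and 3.40. Summed over the 10 processing genes, it was 1840, 2002, 2217 and 2022 in Control against 2105, 1992, 2155 and 2209 in Notch3IC, a fold of 1.14, 0.995, 0.972 and 1.09. The collagen sum was thus higher in Notch3IC in 4 of 4 sets, and the sum of the processing genes in 2 of 4.

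The ratio of the 2 sums was 1.50, 2.50, 3.52 and 4.24 in Control against 0.881, 1.91, 1.67 and 1.36 in Notch3IC. It was lower in Notch3IC in every set, at 0.586, 0.764, 0.475 and 0.321 of the Control value. P4hb and Serpinh1 make up most of the sum of the processing genes (49.8% and 38.1% on average in Control), and the type I chains Col1a1 and Col1a2 made up 81.8% of the fibrillar sum in Control, so the ratio mainly describes these 4 genes. Gene by gene, 8, 8, 9 and 9 of the 10 had a smaller log2 ratio than the fibrillar sum in Sets 1 to 4. The level of Bmp1 per fibrillar sum was 1.96, 1.01, 1.55 and 1.19 times the Control value in Sets 1 to 4. For P4ha3 it was 1.00, 1.16, 0.931 and 0.807 times.

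**Figure D4:**
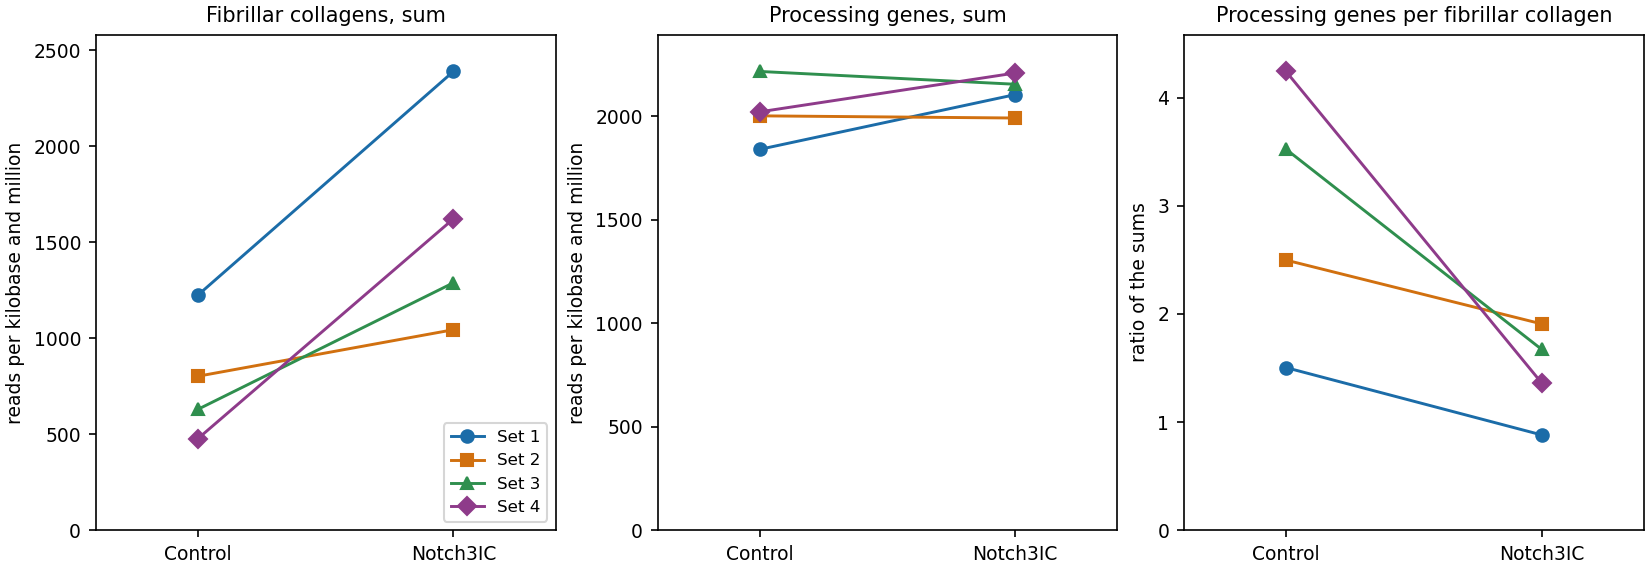
Summed levels, in depth-scaled reads per kilobase, of the fibrillar collagens (left) and of the 10 processing genes (middle), and the ratio of the processing sum to the collagen sum (right). Lines join the libraries of a set and every axis starts at 0. The collagen sum rises in all 4 sets, the processing sum stays between 1840 and 2217, and the ratio falls in all 4 sets.

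On the per-kilobase scale the order of the 10 genes was nearly the same in both groups. In Control it ran from P4hb (1010 ± 174) and Serpinh1 (767 ± 128) through Pcolce (93.0 ± 20.3), P4ha1 (56.8 ± 6.06), Plod2 (34.0 ± 5.38), Plod3 (25.6 ± 7.24), P4ha2 (16.0 ± 1.76), Bmp1 (8.39 ± 1.45) and Plod1 (6.26 ± 0.471) down to P4ha3 (3.67 ± 1.12). The ranges of P4hb and Serpinh1 overlapped, as did those of Plod2 and Plod3 and those of Bmp1 and Plod1. In Notch3IC, Bmp1 (25.4 ± 10.5) stood above P4ha2 (19.1 ± 1.80) in 3 of 4 libraries, Set 2 being the exception. The ranges of Bmp1 overlapped there with those of both its neighbours, Plod3 (33.5 ± 11.8) and P4ha2.

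Promoters are given for P4ha3 and Plod1, which passed the adjusted p beside Bmp1. The 250 bases before the start of each gene are shown because Notch acts on its targets through RBPJ, whose core motif TGGGAA was searched on both strands (read as TTCCCA on the opposite one). Sequences are from RefSeq on GRCm38.p6, 5′ to 3′ on the strand of the gene, for P4ha3 at chr7:100285270-100285519 (plus strand) and for Plod1 at chr4:147936777-147937026 (minus strand), with the motif in capitals:
P4ha3: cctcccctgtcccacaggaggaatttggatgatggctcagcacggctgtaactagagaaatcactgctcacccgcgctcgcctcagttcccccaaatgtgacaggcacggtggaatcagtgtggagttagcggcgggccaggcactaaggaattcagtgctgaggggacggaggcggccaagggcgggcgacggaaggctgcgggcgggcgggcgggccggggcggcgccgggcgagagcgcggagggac
Plod1: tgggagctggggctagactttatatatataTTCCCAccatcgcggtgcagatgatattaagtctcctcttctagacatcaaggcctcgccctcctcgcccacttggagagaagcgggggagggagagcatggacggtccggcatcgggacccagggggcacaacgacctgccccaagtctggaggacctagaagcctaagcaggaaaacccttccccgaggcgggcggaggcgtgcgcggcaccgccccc
The motif stood in the Plod1 window, beginning 220 bases before the start, and its letters were not in the P4ha3 window. RefSeq promoters were matched for 8 of the 10 genes, the others being Bmp1, the called gene, and Plod2. The motif was in 3 of these 8 (Plod1, Plod3 and Pcolce), which is 37.5%, against 18.2% of 22 partner genes and 21.6% of all 32851 promoters. A gene with several promoters was counted if any of them held the motif, while the last share counts each promoter separately. A match describes these letters and does not mark a bound site.

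A list of 28 partner genes, which work beside the 10 in collagen biosynthesis, had a median close to theirs. Of these, 23 were tested and their median log2 fold change was 0.30. Called higher were 3, against 3.40% of all genes tested, and 0 were called lower, against 0.740%. At the adjusted p alone 5 were higher, against 5.00%. With the set as a block 14 of the 23 were higher at the adjusted p, against 14.9% of all genes tested, and 1 was lower, against 12.1%. The block called 3 higher, against 5.19%. Mia3 was listed at 0 in all 8 libraries. Under the symbol Mia2 too few counts were listed to test, but the files list Ctage5, an older name within the same gene, separately. Ctage5, named here after its values were seen, had 1570 to 3426 counts per library and a log2 fold change of -0.13 (SE 0.11, adjusted p = 0.614).

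The largest change among the partners was that of Adamts2, the protease that cuts off the amino propeptide of fibrillar procollagen. Its normalized counts were 1102, 1555, 1375 and 882 in Control against 6710, 2304, 6477 and 4988 in Notch3IC. As for Bmp1, the groups did not overlap and Set 2 had the smallest rise, a log2 ratio of 0.57 against 2.24 to 2.61. The log2 fold change was 2.06 (SE 0.34, adjusted p = 0.0247). Adamts14, a relative of the same activity, had a log2 fold change of 0.83 (adjusted p = 0.129), and Adamts3 one of -0.77 (SE 0.56, adjusted p = 0.521). With the block Adamts3 was called lower (-1.02, adjusted p = 0.0657).

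Creb3l1, a membrane-bound transcription factor that drives type I collagen secretion in bone, had 5403, 5254, 3845 and 3179 normalized counts in Control against 16487, 6612, 11566 and 10590 in Notch3IC. Its groups did not overlap, and its log2 fold change was 1.36 (SE 0.29, adjusted p = 0.0444). Rcn3, a calcium-binding protein of the endoplasmic reticulum, had 2600, 2964, 2317 and 1648 normalized counts in Control against 6181, 3914, 5747 and 6007 in Notch3IC, again without overlap. Its log2 fold change was 1.20 (SE 0.21, adjusted p = 0.027).

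Leprel2, the older symbol of the prolyl 3-hydroxylase gene P3h3, passed the adjusted p under the fold limit (log2 fold change 0.93, adjusted p = 0.0359). So did Fkbp14, a prolyl isomerase (0.79, adjusted p = 0.0848). The most abundant partners were Sparc, a collagen-binding glycoprotein, Sec31a, a coat protein of export vesicles, and Fkbp10, a chaperone of procollagen. Their log2 fold changes were 0.38, 0.30 and 0.31 (adjusted p = 0.182, 0.239 and 0.159, and 0.0679, 0.0652 and 0.0516 with the block). Without Set 2 the log2 fold changes of Adamts2, Creb3l1 and Rcn3 were 2.44, 1.64 and 1.45 (adjusted p = 0.00324, 0.0165 and 0.00846). Without Set 3 they were 1.99, 1.28 and 1.16, and without Set 4 they were 1.95, 1.26 and 1.01, in fits that could not call Notch3. Without the Control library of Set 3 they were 2.12, 1.29 and 1.18 and their calls were lost (adjusted p = 0.103, 0.143 and 0.105).

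**Figure D5:**
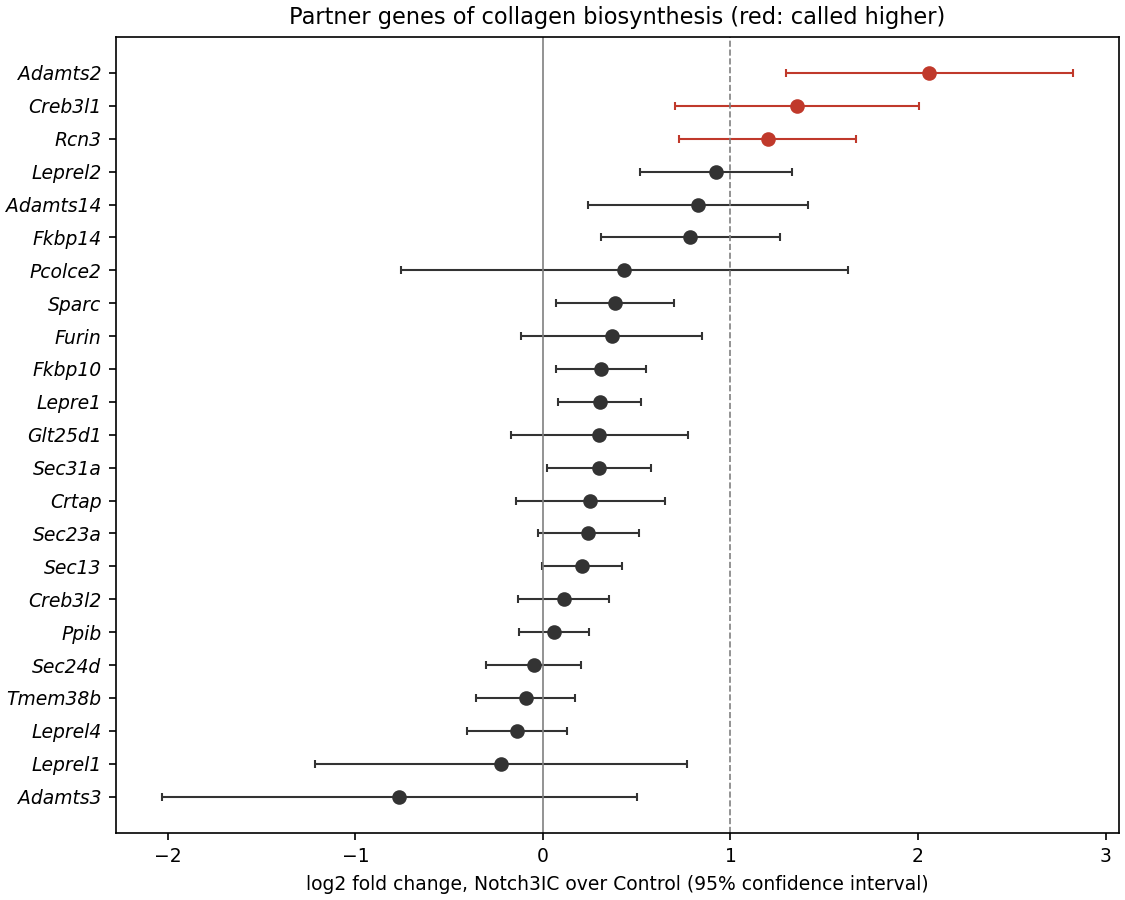
Log2 fold changes of the 23 partner genes tested, Notch3IC over Control, with 95% confidence intervals from the fit with condition alone. Red marks the 3 called higher and the dashed line the fold limit of 1. Adamts2, Creb3l1 and Rcn3 lie past the line and most other partners lie between 0 and 1.

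General folding genes of the endoplasmic reticulum, which serve secreted proteins of every kind, were listed beside the 10. Of 18 such genes, all tested, 0 were called, 16 had log2 fold changes below 0 and the median was -0.19. Set 1 went the other way, with 14 of the 18 higher in Notch3IC and a median log2 ratio of 0.12, against 3, 0 and 2 higher in Sets 2 to 4. An unadjusted p under 0.05 was found for 2 genes, both lower, and DESeq2 called 0 in either direction. With the set as a block 3 of the 18 were lower at the adjusted p, against 12.1% of all genes tested, and 0 were higher. The most abundant, Calr, Hsp90b1 and Hspa5, had log2 fold changes of -0.23, -0.12 and -0.17 (adjusted p = 0.473, 0.78 and 0.662). The smallest p was that of the chaperone Hyou1 (-0.47, adjusted p = 0.108).

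Genes of the hypoxia response were also listed, because P4ha1, P4ha2 and Plod2 are known targets of hypoxia-inducible factor. Of 25 listed, 23 were tested, 1 was called higher (Ddit4, log2 fold change 1.71, adjusted p = 0.0719) and 1 lower (Egln3, -1.23, adjusted p = 0.0337). Of all genes tested, 3.40% were called higher and 0.740% lower. Ero1l, an oxidase of the endoplasmic reticulum, passed the adjusted p under the fold limit (-0.40, adjusted p = 0.0625). At the adjusted p alone 2 genes were lower, against 1.69% of all genes tested. With the set as a block 8 of the 23 were lower at the adjusted p, against 12.1% of all genes tested, and 1 was higher. The median of the list was -0.17, and Vegfa had a log2 fold change of -0.33 (adjusted p = 0.265).

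Markers of cell type moved with the condition. Summed over 10 markers of ovarian surface epithelium and mesothelium, the normalized counts were 22071, 41881, 66523 and 64401 in Control against 7088, 26855, 24851 and 19090 in Notch3IC. Upk3b was the most abundant, Krt7 and Epcam had too few counts to test, all 8 markers tested had log2 fold changes below 0, and Msln was called lower (-2.60, adjusted p = 0.0625). With the set as a block 4 of the 8 were called lower, against 2.53% of all genes tested, and 7 passed the adjusted p. DESeq2 also called 4 lower. Summed over 6 fibroblast markers, the counts were 3354, 15904, 12651 and 10681 in Control against 7267, 14374, 22307 and 24184 in Notch3IC, with Pdgfra the most abundant and Pdgfrb and Fap called higher (log2 fold change 5.99 for Pdgfrb). Fap had 0, 5, 2 and 2 raw counts in Control against 177, 29, 1028 and 1389 in Notch3IC, and passed the filter through the Notch3IC libraries. Of the other fibroblast markers tested, Pdgfra had a log2 fold change of 0.49 (adjusted p = 0.592) and Dcn one of -0.47 (adjusted p = 0.809, and 0.0275 with the block). The fibroblast markers Thy1 and Lum had at most a few counts in any library. The part of these markers in the changes of Bmp1, P4ha3 and Plod1 was not tested, and in bulk RNA a smaller share of cells of a type and less RNA per cell cannot be told apart.

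Leukocyte and endothelial markers were near 0. The 7 leukocyte markers summed to between 42.5 and 120 normalized counts per library, most of them Cd68, with Cd3e and Emr1 at 0 in all 8 libraries. The 4 endothelial markers summed to between 11.9 and 49.2. The part of such cells in the change of Bmp1 was not tested.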

How the data were processed

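The libraries held polyadenylated RNA, read from 1 end. By the submitters' processing notes and the paper's methods, the reads were aligned to mm9 with TopHat and handled with Cufflinks and DESeq. Versions, annotation and strandedness are not given in the sources used here. The authors deposited raw counts per gene symbol, 1 file for each of the 8 libraries, with no coordinates. Positions and exon lengths are from GENCODE M21 on GRCm38, where 20845 symbols matched directly and 1903 by synonym.

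Counts were tested with edgeR 4.0.16 in R 4.3.3 (TMM, filterByExpr by condition, robust quasi-likelihood F test, two-sided, condition alone), with Benjamini-Hochberg adjustment over the 12430 genes tested and the thresholds given in the paper's methods. Standard errors were taken from the F statistic. Within-set ratios used a pseudocount of 0.5 normalized counts. The steps were tested on simulated counts. The biological coefficient of variation was 26.3% with condition alone and 14.1% with the set as a block, so the spread between lines bears on precision beside depth.

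Each set is a matched infection, by the paper's methods. Deviations from the group means correlated within Sets 1 to 4 at 0.804, 0.398, 0.565 and 0.409, and across sets at -0.501 to 0.372, the highest being between Sets 3 and 4. The set numbers were taken to pair the libraries. Alternatives were DESeq2 1.42.0, RLE and library-total scaling, no filter, a minimum of 10 counts in every library, the block, other thresholds, and leaving out each library or set. The block without a fold limit and the block without Set 2 were added after the data were seen. All 10 genes were named, and from the other lists every called gene and some of those with the smallest p-values or the highest counts. The members and lists were chosen with earlier results of these data known.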

Additional observations from a re-analysis of the deposited data

Results flagged for a closer look

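A library was picked out where its gap to the nearest of the other 3 of its group, divided by the range of the group, passed Dixon's 95% limit for 4 values. This happened in 7 of 106 groups of 4 libraries searched, where chance gives about 1 in 20 (5.3), and 4 of the 7 were the Control library of Set 1.

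Among the processing genes, Plod3 was high in the Control library of Set 1 (ratio 0.932), at 3845 normalized counts against 2261 to 2369 in the other 3. P4ha2 was low in the Notch3IC library of Set 3 (ratio 0.905), at 2388 against 2877 to 2929. Among the collagens, Col5a1 (0.881) and Col8a1 (0.846) were high in the Control library of Set 1. Aldoa, a glycolytic enzyme of the hypoxia list, was high there too (0.929). Sdf2l1, an endoplasmic reticulum protein, was low in the Notch3IC library of Set 1 (0.925), at 193 against 480 to 504. Notch3 was high in the Control library of Set 3 (0.896), at 70.8 normalized counts against 38.6 to 42.0.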

How the results depend on the processing

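The number of processing genes called higher was 1. It was 3 with no limit on the fold, 6 with the replicate block and no fold limit, and 2 with the replicate block without Set 2, and it stayed at 1 (Bmp1) with the block and both thresholds of the call, with DESeq2 and at an adjusted p under 0.05. Leaving out a library or a set gave 0 to 2, with 0 without the Control library of Set 3 or 4, the Notch3IC library of Set 4, or the whole of Set 3 or 4, and 2 (Bmp1 and P4ha3) without the Control library of Set 2 or the whole set. Without Set 3 or Set 4 only 1 or 0 of all genes tested were called higher, and Notch3 was not called, so the 0 there is a property of those fits. The collagens called higher went from 7 to 15 with DESeq2 and 15 with the block, to 4 with at least 10 counts in every library, to 4 at an adjusted p under 0.05, to 16 with the block and no fold limit, to 17 with the block without Set 2, and to 0 to 14 when a library or set was left out. The cause was not tested, other than that fewer libraries enter each leave-out fit.

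P4hb, at -0.03 in the fit reported, ran from -0.15 to 0.03 when single libraries or sets were omitted. It changed sign on omission of Control 2 (0.0296), Control 3 (0.00479) or Notch3IC 1 (0.0306), and at 0.0132 with the block lacking Set 2. Serpinh1 ran from -0.0300 (Control 2 omitted) to 0.18. Bmp1, P4ha3 and Plod1 kept their direction under all alternatives, but lost the adjusted p in 3, 5 and 6 of the 8 fits without a single library, and P4ha3 and Plod1 also without Set 1 (0.108 and 0.141). Notch3 was called in all of these fits. The median log2 fold change of the 10 genes ran from 0.20 to 0.37. Of 190 values of single genes refitted under 19 settings, 177 kept both direction and call, where a call needs the adjusted p and the fold limit together. The adjusted p alone changed side in some of these 177, such as those of P4ha1, Plod3 and Pcolce with the block. With 4 libraries a group, the spread between sets limits how small a change can be called.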
